A study of Schizosaccharomyces pombe with 9 samples.

Results

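The RNAs described here are the well-measured long noncoding RNAs (lncRNAs) of fission yeast, *Schizosaccharomyces pombe*. Of the 1527 count rows whose systematic ID begins with SPNCRNA, the PomBase prefix for noncoding RNA genes, 173 were selected on a mean CPM of at least 15 (CPM is the count scaled to the column sum) over all 9 libraries, with SPNCRNA.1400 left out by name. The count table held 6988 genes. The 3 haploid *h*- strains were WT, *ecl3*Δ (ASY96, *ecl3*Δ::kanMX) and *ecl123*Δ (ASY136, *ecl1*Δ::hygMX *ecl2*Δ::natMX *ecl3*Δ::kanMX), with 3 biological replicates of each. WT was taken to be AS478, the *h*- strain without a deletion in the paper's strain list. All strains of that list also carry mutant alleles of *leu1*, *ura4*, *his3* and *ade6*, and which *ade6* allele the deletion strains carry is not given. In the mutants, drug-resistance cassettes replaced the ORFs of the Ecl proteins, small zinc-binding paralogs that extend chronological lifespan. Each strain is a haploid line, and the triple mutant was assembled by serial matings and random spore analysis. All cells were in logarithmic vegetative growth at 30 °C in YES, a rich medium, and poly(A)+ RNA was sequenced with a strand-specific kit. The comparisons ask how loss of Ecl3 alone, or of all 3 Ecl proteins, affects RNA levels when phosphate is plentiful.

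In fission yeast much of the genome is transcribed on the strand opposite a coding gene as well as on the coding strand. Most lncRNAs are short-lived, since the nuclear exosome degrades them, in part after recognition by the RNA-binding protein Mmi1 or by the RNA interference machinery. Transcription of a lncRNA across the promoter of its neighbor can silence that neighbor, as happens at the phosphate-responsive genes *pho1*, *pho84* and *tgp1*.

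The libraries held 23254907 to 34871124 counts, and the lowest count of any member in any library was 140. The *ecl3* row held 23, 15 and 42 counts in WT, 0 in each *ecl3*Δ library and 0, 0 and 1 in *ecl123*Δ. The *ecl1* row was higher in *ecl123*Δ, at 107.5 ± 15.3 CPM against 16.3 ± 1.99 in WT (SD, n = 3; log2 fold change 2.74, edgeR adjusted p = 3.57e-05), and the *ecl2* row was at 75.2 ± 5.78 CPM against 55.2 ± 4.42 (log2 fold change 0.47, edgeR adjusted p = 0.125). In the RefSeq annotation of ASM294v3 both mRNAs extend well past the ORF at the 3′ end, and counts per gene do not show where the reads fall. These rows therefore do not check the deletions of the ORFs, and the cause of the *ecl1* difference was not tested. *ecl3*Δ replicate 2 stood apart from the other *ecl3*Δ libraries and *ecl123*Δ replicate 3 from the other *ecl123*Δ libraries, and the main counts are given with and without each. snRNA and snoRNA rows held 0.0234% of the counts of *ecl123*Δ replicate 3 and 0.0380% to 0.0515% elsewhere. The genes *mfm1*, *mfm2*, *mfm3*, *mam1* and *mam2*, used as M-cell markers for the *h*- mating type, summed to 198 to 219 CPM in WT, 119 to 235 in *ecl3*Δ and 72.4 to 85.7 in *ecl123*Δ. Of these 5 genes, 4 fell in *ecl123*Δ (edgeR adjusted p of 0.0324 to 0.0423). Of the genes used as P-cell markers, *map2* and *map3* were at 3.53 to 11.6 CPM in all libraries, while *sxa1* was at 393 to 808 CPM, above the M-cell sums. In *ecl123*Δ against WT, *sxa1* had a log2 fold change of -0.67 (edgeR adjusted p = 0.0906), *map2* 0.50 (edgeR adjusted p = 0.238) and *map3* 0.21 (edgeR adjusted p = 0.628). The part of mating-type gene expression in the lncRNA changes was not tested.

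The members are mostly antisense RNAs. By RefSeq's ASM294v3 annotation, 130 of the 173 overlap a coding gene on the opposite strand and 33 overlap only noncoding genes there. A further 9 overlap no gene on the opposite strand, and SPNCRNA.01 could not be matched. The median annotated span was 2015 bases. RefSeq gives 23 members the remark that they may be an alternative UTR of a neighboring mRNA, and 20 overlap a coding gene on the same strand. Among all SPNCRNA rows, 25 of the 29 that lie wholly inside genes of the same strand had a count of 0 in every library, while 100 of the 104 wholly inside opposite-strand coding exons had counts. The deposited counts therefore separate the strands, and a read shared by genes of the same strand was mostly not counted.

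The member with by far the most counts was *prl53* (SPNCRNA.53), one of the poly(A)-bearing RNAs that lack a long ORF. Its level was 2159, 1907 and 1849 CPM in WT, against 1795, 2096 and 1634 for *ecl3*Δ and 1451, 1451 and 2084 for *ecl123*Δ, and the strains overlapped (log2 fold change -0.23 ± 0.15 SE in *ecl123*Δ against WT, edgeR adjusted p = 0.452). Next came SPNCRNA.1626 with a mean of 237 CPM, SPNCRNA.863 with 194, *rse1* (SPNCRNA.111) with 150 and SPNCRNA.1096 with 109, and these 5 were the only members over 100 CPM. The other 7 of the 12 highest were *omt3* (SPNCRNA.130), SPNCRNA.1658, SPNCRNA.1118, SPNCRNA.1505, ncRNA.1343 (SPNCRNA.1343), SPNCRNA.1690 and SPNCRNA.1644, at means of 56.7 to 72.3 CPM. The median member was at 22.5 CPM. Per kilobase of annotated span, *prl53* was again first at 985 CPM per kb, followed by SPNCRNA.863 at 119 and by *mrp1* (SPNCRNA.82), the RNA of the RNase MRP that cleaves rRNA precursors, at 84.5. SPNCRNA.863 carries repeated sequence in 54.6% of its 51-base windows, so its reads may be shared with copies elsewhere. The 3 members just inside the limit were SPNCRNA.1344, SPNCRNA.1111 and SPNCRNA.1636 at 15.06, 15.03 and 15.01 CPM, and just outside it lay SPNCRNA.1087, SPNCRNA.980 and SPNCRNA.1031 at 14.9 CPM each. The mean of each strain reached the limit in all 3 strains for 137 members. In 25 members the *ecl123*Δ mean was under the limit and the WT mean was not, and in 5 the reverse held.

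In *ecl123*Δ against WT, 2 of the 173 lncRNAs fell and 2 rose, at an adjusted p of at most 0.05. SPNCRNA.839 and SPNCRNA.995 fell, and SPNCRNA.763 and SPNCRNA.291 rose. Over the 6257 genes tested 0.607% were higher and 0.575% were lower by this rule, against 1.16% of the members in each direction. The member shares rest on 2 members each. Each of the 4 had a strain mean under the abundance limit, which was *ecl123*Δ for SPNCRNA.839 and SPNCRNA.995, *ecl3*Δ for SPNCRNA.763 and WT for SPNCRNA.291, so they became members through the strains in which they were high. Among the 137 members at or above the limit in all 3 strains, 0 passed the adjusted p in edgeR. An unadjusted p under 0.05 was seen in 34 of them (24.8%), and in 19.9% of all genes. When a 2-fold change and a normalized mean of 100 counts or more were also required, SPNCRNA.839 and SPNCRNA.995 alone passed, where 0.288% of all genes passed as higher and 0.447% as lower.

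SPNCRNA.839 runs antisense to *rog1*, which encodes a lipase. It was at 31.4, 36.8 and 39.3 CPM in WT, against 23.1, 39.0 and 23.2 for *ecl3*Δ and 13.0, 14.9 and 13.6 for *ecl123*Δ. All *ecl123*Δ libraries were below all others, and *ecl3*Δ replicate 2 was at the WT level. The log2 fold change in *ecl123*Δ against WT was -1.35 ± 0.20 SE (edgeR adjusted p = 0.0336). The *rog1* mRNA on the other strand was at 64.6 ± 1.89 CPM in WT and 69.4 ± 10.9 in *ecl123*Δ (SD, n = 3; log2 fold change 0.12, adjusted p = 0.593 by edgeR).

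SPNCRNA.995 lies among *but1* and genes of the But2 family, overlaps the But2 family gene SPAC27D7.11c on the same strand and carries the remark on alternative UTRs. It was at 40.1, 43.0 and 40.2 CPM in WT, against 15.5, 44.9 and 24.4 for *ecl3*Δ and 8.84, 14.5 and 13.3 for *ecl123*Δ. The *ecl123*Δ libraries lay below all WT libraries, and the *ecl3*Δ libraries ranged from near the *ecl123*Δ level to above WT. The log2 fold change was -1.74 ± 0.33 SE (edgeR adjusted p = 0.0423). SPAC27D7.11c itself moved the other way, from 93.5 ± 7.14 CPM in WT to 170 ± 46.5 in *ecl123*Δ (SD, n = 3; log2 fold change 0.89, edgeR adjusted p = 0.0423).

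SPNCRNA.763, antisense to *sgt1* and *dld1*, was the most even of the 4. It was at 15.4, 15.8 and 14.9 CPM in WT, against 14.5, 14.8 and 14.3 for *ecl3*Δ and 21.7, 23.7 and 21.9 for *ecl123*Δ. The *ecl3*Δ libraries lay just below the WT libraries, and all *ecl123*Δ libraries were above both strains. The log2 fold change against WT was 0.57 ± 0.10 SE (edgeR adjusted p = 0.0423), and against *ecl3*Δ it was 0.63 (adjusted p = 0.0682). Neither *sgt1* (log2 fold change 0.16, adjusted p = 0.313) nor *dld1* (0.11, adjusted p = 0.470) passed the test. SPNCRNA.291 has no gene on the opposite strand and lies between a transporter gene, SPBPB10D8.07c, and an amino acid permease gene, SPBC359.01. It was at 12.7, 11.3 and 13.9 CPM in WT, against 19.2, 14.5 and 17.8 for *ecl3*Δ and 21.9, 21.9 and 20.4 for *ecl123*Δ. All 6 mutant libraries were above all WT libraries. The log2 fold change was 0.78 ± 0.14 SE in *ecl123*Δ (edgeR adjusted p = 0.0423) and 0.46 in *ecl3*Δ (adjusted p = 1.00).

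The count of 4 depended on which libraries entered the fit. It was 0 without any 1 of the 3 WT libraries, without *ecl3*Δ replicate 3 or without *ecl123*Δ replicate 1, fits in which 0.0318% to 0.0478% of all genes were called. It was 8 (4.62% of the members) without *ecl123*Δ replicate 2, where 2.26% of all genes were called. Without *ecl123*Δ replicate 3 it was 10 (5.78%), 9 higher and 1 lower, where 2.5% of all genes were called. The count was 15 (8.67%) without *ecl3*Δ replicate 1, against 3.1% of all genes, and 25 (14.5%) without *ecl3*Δ replicate 2, against 7.17% of all genes. DESeq2 called 30 members (17.3%), 10 higher and 20 lower, among them these 4, where it called 9.05% of all genes. A fit of WT and *ecl123*Δ alone called 20 (11.6%), where it called 5.34% of all genes.

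**Figure D1:**
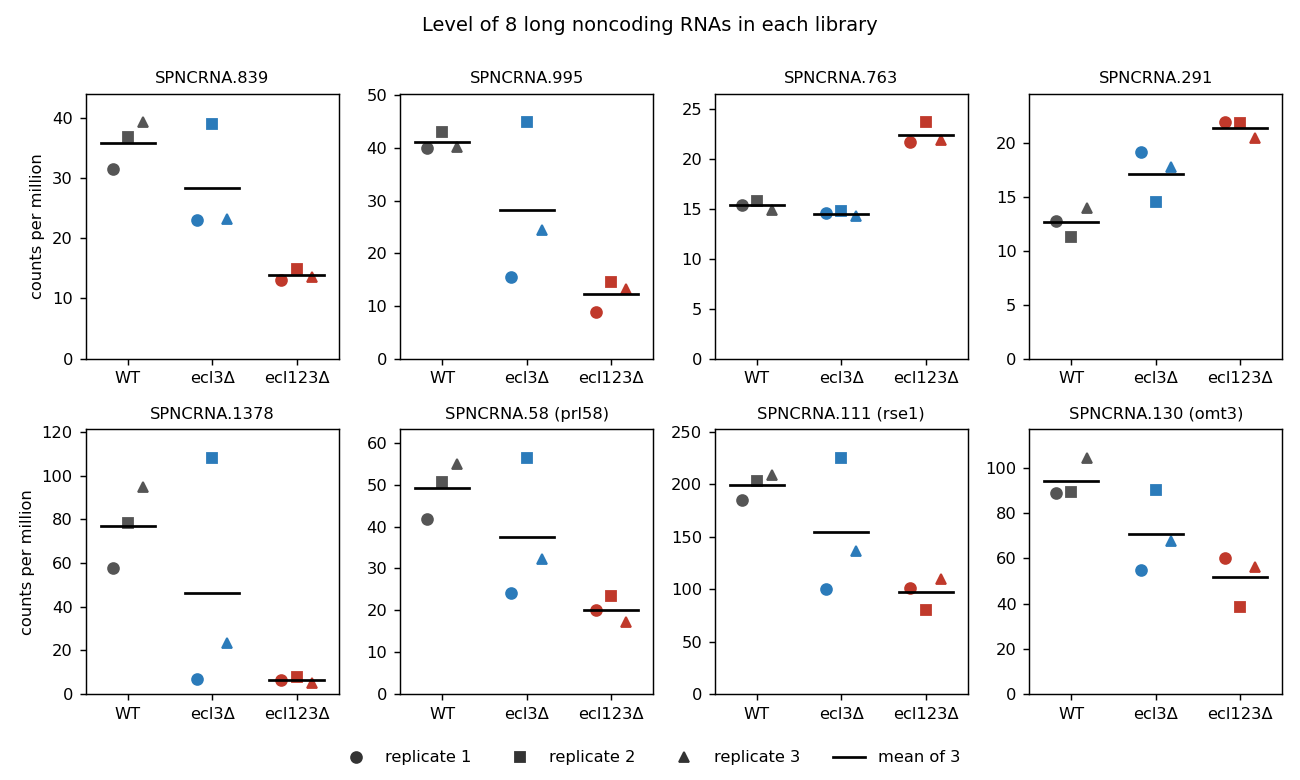
Level of 8 lncRNAs in each library, in CPM on linear axes that start at 0; symbols mark the replicate and bars the mean of 3. In the 6 members that are lower in *ecl123*Δ, *ecl3*Δ replicate 2 (square) sits at or above the WT mean in 5 and just below it in *omt3*, where it is at 90.2 CPM.

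At an unadjusted p under 0.05, 32 members (18.5%) were lower and 17 (9.83%) were higher in *ecl123*Δ than in WT, where 9.70% and 10.2% of all genes tested were. The libraries of the strains did not overlap in 40 members that were lower (23.1%) and 16 that were higher (9.25%), beside 15.2% and 10.4% of all genes. More members were lower than higher in both counts, and the excess was absent in the first and smaller in the second without *ecl123*Δ replicate 3. Without it, 28 members were lower and 28 higher at an unadjusted p under 0.05 (16.2% each), where 14.3% and 13.7% of all genes were, and 44 (25.4%) and 38 (22.0%) did not overlap, beside 29.4% and 19.1% of all genes. Without *ecl3*Δ replicate 2 the counts at that p were 32 lower (18.5%) and 19 higher (10.98%), where 10.54% and 10.43% of all genes were. The median log2 fold change was -0.05 over the members and 0.00 over all genes. Without *ecl123*Δ replicate 3 it was 0.03 over the members and -0.01 over all genes. For the 992 SPNCRNA rows tested that are not members, the median over all libraries was 0.01. Of these rows 9.88% were lower and 9.38% were higher at the same unadjusted p. Of the 137 members at or above the limit in all 3 strains, 14.6% were lower and 10.2% higher, with a median of -0.01. By class, 22 of the 130 antisense to a coding gene were lower and 12 higher, as were 7 and 4 of the 33 antisense to noncoding genes only, and 3 and 1 of the 9 without an opposite-strand gene. A change of at least 2-fold at that p was seen in 10 members (5.78%), all of them lower, where 1.95% of all genes were lower and 1.10% higher by this rule. This count is a description, since a member can be under the limit in the strain where it is low.

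**Figure D2:**
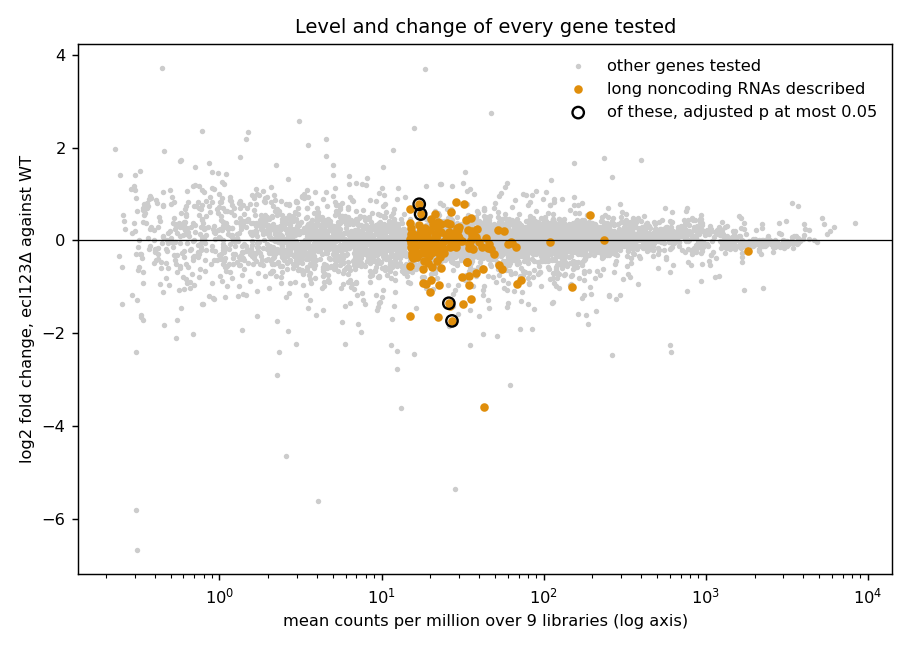
Mean CPM over the 9 libraries (log axis) against the log2 fold change in *ecl123*Δ against WT for the 6257 genes tested; lncRNA members are orange, and circles mark those at an adjusted p of at most 0.05. Most members sit near 0, and the lowest point among them is SPNCRNA.1378 at -3.60.

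The largest difference belonged to SPNCRNA.1378, which is antisense to *cbp6* and *ndi1*, genes of mitochondrial respiration, overlaps *rba50* on the same strand and carries the remark on alternative UTRs. It was at 57.5, 78.3 and 94.9 CPM in WT and at 6.23, 7.70 and 4.85 in *ecl123*Δ. In *ecl3*Δ it was at 6.83, 108 and 23.1, so that replicate 1 matched the triple mutant and replicate 2 exceeded WT. The log2 fold change in *ecl123*Δ against WT was -3.60 ± 0.82 SE and missed the threshold (edgeR adjusted p = 0.0638; DESeq2 adjusted p = 0.00172). The coding genes *cbp6*, *ndi1* and *rba50* had log2 fold changes of 0.16, -0.11 and 0.21, and none passed the test.

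Further members had low values in *ecl123*Δ that missed the threshold, among them antisense and intergenic RNAs. SPNCRNA.67, antisense to *epe1*, whose product limits heterochromatin, went from 35.1 ± 4.45 CPM in WT to 10.9 ± 3.92 in *ecl123*Δ (edgeR adjusted p = 0.0873). SPNCRNA.1252, antisense to *ams2*, which encodes a GATA-type factor, went from 22.9 ± 3.54 to 7.25 ± 0.308 (edgeR adjusted p = 0.121). For SPNCRNA.1077, antisense to *met8* and *csi2*, the log2 fold change was -1.42 (edgeR adjusted p = 0.0873). The coding genes *epe1*, *ams2*, *met8* and *csi2* had log2 fold changes of -0.34, 0.17, -0.04 and 0.03. SPNCRNA.1014, which overlaps no coding gene, went from 47.2 ± 5.36 to 18.03 ± 5.04 CPM (log2 fold change -1.36, edgeR adjusted p = 0.104), and its coding neighbors *gwt1* and *rps1102* had -0.70 (edgeR adjusted p = 0.121) and -0.06. *prl58* (SPNCRNA.58), an intergenic poly(A)-bearing RNA next to the inositol transporter gene *itr2*, was at 41.7, 50.7 and 55.0 CPM in WT, against 24.2, 56.5 and 32.2 for *ecl3*Δ and 20.04, 23.4 and 17.1 for *ecl123*Δ. Its log2 fold change was -1.26 ± 0.27 SE (edgeR adjusted p = 0.0588), and that of *itr2* was -1.10 (edgeR adjusted p = 0.0423).

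Of the lncRNAs that have been linked to mating and meiosis, *rse1* and *omt3* were abundant enough to be members. *rse1* is annotated as a cis-acting repressor of *ste11*, the gene for the transcription factor that starts sexual differentiation, and lies beside it. It was at 185, 203 and 209 CPM in WT, against 101, 225 and 137 for *ecl3*Δ and 101, 80.2 and 110 for *ecl123*Δ. All *ecl123*Δ libraries were below all WT libraries, with a log2 fold change of -1.01 ± 0.25 SE (edgeR adjusted p = 0.0769; DESeq2 adjusted p = 0.00214). *ste11* mRNA fell as well, from 89.6, 72.7 and 67.9 CPM in WT to 17.9, 17.5 and 18.9 in *ecl123*Δ (log2 fold change -2.06 ± 0.40 SE, edgeR adjusted p = 0.0455), and was at 34.0, 110 and 34.9 in *ecl3*Δ. *cyc3*, the heme lyase gene that *rse1* overlaps in antisense, differed by -0.20 (edgeR adjusted p = 0.212). *omt3*, annotated as a meiosis-specific lncRNA of Smp foci, was at 89.0, 89.3 and 105 CPM in WT, against 54.8, 90.2 and 67.9 for *ecl3*Δ and 60.4, 38.4 and 56.1 for *ecl123*Δ. Its log2 fold change was -0.84 ± 0.20 SE (edgeR adjusted p = 0.0750), and of its coding neighbors *mei2*, which encodes a meiotic RNA-binding protein, had -0.64 (edgeR adjusted p = 0.0952) and *omt2* had -0.09 (adjusted p = 0.724). Among the 8 genes of the list of meiosis-linked lncRNAs, 6 were tested, 3 of them with a log2 fold change below 0. In edgeR 0 passed, and 3 were past an unadjusted p of 0.05, where 19.9% of all genes were. These were *rse1* and *omt3*, which were lower, and *meu16*, which was higher (log2 fold change 0.97, edgeR adjusted p = 0.0725) and lies below the abundance limit. DESeq2 called 3 of the 6 tested genes of this list, where it called 9.05% of all genes. Of the 25 prl RNAs tested 0 passed, 5 were past an unadjusted p of 0.05, a share near that of all genes, and DESeq2 called *prl58* alone.

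None of the phosphate lncRNAs passed the test. *prt2* (SPNCRNA.9001), the lncRNA annotated as repressing *pho84*, which has *ecl3* as its coding neighbor on one side, was at 35.2, 33.0 and 32.9 CPM in WT, against 33.4, 43.7 and 33.4 for *ecl3*Δ and 42.0, 32.5 and 40.3 for *ecl123*Δ. The strains overlapped, with log2 fold changes of 0.21 in *ecl123*Δ (edgeR adjusted p = 0.458) and 0.14 in *ecl3*Δ (adjusted p = 1.00). *pho84* mRNA was lower in *ecl123*Δ, at 616 ± 121 CPM against 1137 ± 66.2 in WT (SD, n = 3; log2 fold change -0.87, edgeR adjusted p = 0.0336). *nc-tgp1* (SPNCRNA.1698), the lncRNA that interferes with *tgp1*, was at 26.1 to 30.1 CPM in WT and *ecl123*Δ alike (log2 fold change 0.03 ± 0.12 SE, adjusted p = 0.926 by edgeR), and ncRNA.1343, which is transcribed away from it, had a log2 fold change of -0.04. By the annotation *prt2* overlaps *pho84*, and *nc-tgp1* overlaps *tgp1*, on the same strand. Reads shared by such genes were mostly not counted. Of the 3 lncRNAs of the phosphate gene list, *nc-pho1* being the one below the abundance limit, 0 passed in edgeR or DESeq2, and 0 had an unadjusted p under 0.05.

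Members that are structured RNAs or their precursors did not pass the test. *mrp1* was at 40.3, 37.6 and 40.5 CPM in WT, against 30.7, 33.0 and 37.1 for *ecl3*Δ and 33.5, 32.8 and 18.01 for *ecl123*Δ (log2 fold change -0.46, edgeR adjusted p = 0.264). *snoR61* (SPNCRNA.445), annotated as the small nucleolar RNA snR61, was at 53.2, 50.1 and 29.6 CPM in *ecl123*Δ and at 49.5 to 53.9 in WT (log2 fold change -0.18, edgeR adjusted p = 0.697). The snoRNA primary transcript SPNCRNA.1483 was higher, at 25.7, 25.8 and 20.4 CPM against 16.6, 15.4 and 21.1 in WT, and the strains overlapped (log2 fold change 0.46, edgeR adjusted p = 0.139). Replicate 3 was the lowest *ecl123*Δ library in all 3, as it was for 110 of the 173 members. No share over all genes is given for that count. Of the 4 genes of the list of structured RNAs (*mrp1*, *rrk1*, *ter1* and *srp7*), 0 passed in edgeR or DESeq2. In *ecl123*Δ against WT 1 was past an unadjusted p of 0.05, where 19.9% of all genes were.

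Among members that were higher in *ecl123*Δ, the largest values at an unadjusted p under 0.05 were those of SPNCRNA.609, SPNCRNA.798, SPNCRNA.291, SPNCRNA.1344 and SPNCRNA.1602. SPNCRNA.609 overlaps the glyoxalase gene *hsp3104* on the same strand and went from 23.7, 20.5 and 21.7 CPM in WT to 36.5, 30.4 and 49.5 in *ecl123*Δ (log2 fold change 0.84, edgeR adjusted p = 0.0867). *hsp3104* rose (log2 fold change 0.87, edgeR adjusted p = 0.0423), and the oxoprolinase gene SPAC11D3.14c on the opposite strand had -0.42 (edgeR adjusted p = 0.169). SPNCRNA.798 went from 25.9, 22.7 and 23.6 to 40.6, 42.7 and 38.9 CPM (log2 fold change 0.78, edgeR adjusted p = 0.0737). SPNCRNA.1602, antisense to the meiotic chromosome gene *hop1*, had a log2 fold change of 0.62 (edgeR adjusted p = 0.104), and *hop1* mRNA had 0.08 (adjusted p = 0.902). SPNCRNA.1344 had a log2 fold change of 0.69 (edgeR adjusted p = 0.138), and without *ecl123*Δ replicate 3 it was 0.91 (adjusted p = 0.0374). The abundant SPNCRNA.863 was at 251 and 312 CPM in *ecl123*Δ replicates 1 and 2, at 146 in replicate 3 and at 162 to 167 in WT. It had a log2 fold change of 0.55 over all libraries (edgeR adjusted p = 0.214) and of 0.81 without *ecl123*Δ replicate 3 (edgeR adjusted p = 0.0107).

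Antisense RNAs and the coding genes on the other strand had like signs about as often as unlike ones. For 128 members the coding gene with the main opposite-strand overlap was tested too. In *ecl123*Δ against WT both partners went the same way in 62 pairs and opposite ways in 66. Both were past an unadjusted p of 0.05 in 13 pairs, of which 5 were both lower, 1 both higher and 7 opposite. Taken singly, 28.3% of the members and 19.9% of all genes were past that p. No share over other gene pairs is given for the 13, so the count is a description. The pairs that were both lower included SPNCRNA.1503 with *gpa1*, which encodes a G-protein alpha subunit. *gpa1* fell from 84.9 ± 5.31 to 39.4 ± 6.70 CPM (log2 fold change -1.09, edgeR adjusted p = 0.0424), and SPNCRNA.1503 had a log2 fold change of -0.77 (edgeR adjusted p = 0.123). SPNCRNA.1471 and *pof9*, an F-box protein gene, had -0.96 (edgeR adjusted p = 0.0955) and -1.50 (edgeR adjusted p = 0.0592). Among the opposite pairs, SPNCRNA.1488 had -0.23 (edgeR adjusted p = 0.248) while the urea transporter gene SPBC23G7.13c rose from 1.124 ± 0.397 to 6.72 ± 1.94 CPM (log2 fold change 2.57, edgeR adjusted p = 0.0195). SPNCRNA.636 had 0.36 (edgeR adjusted p = 0.106) and SPAC18B11.03c, an N-acetyltransferase gene, -1.31 (edgeR adjusted p = 0.0678). *obr1*, a quinone dehydrogenase gene, fell from 2955 ± 78.2 to 1420 ± 298 CPM (log2 fold change -1.03, edgeR adjusted p = 0.0336), while its antisense RNA SPNCRNA.793 had -0.17 (edgeR adjusted p = 0.715).

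**Figure D3:**
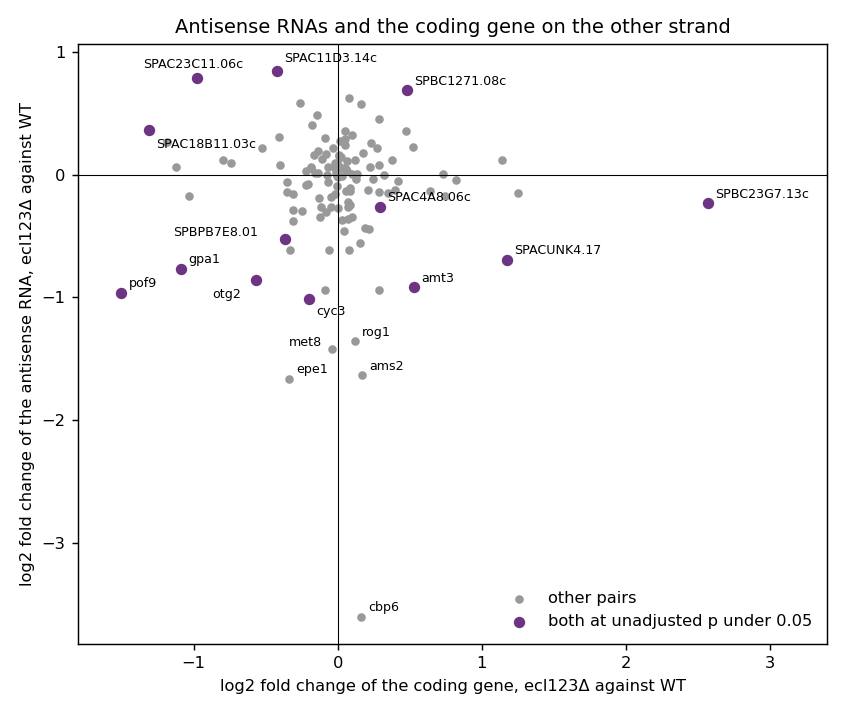
Log2 fold change in *ecl123*Δ against WT of 128 antisense lncRNAs (vertical) and of the coding gene each overlaps (horizontal, gene names beside points); purple points have an unadjusted p under 0.05 for both. The pairs spread over all 4 quadrants, 62 with the same sign and 66 with opposite signs.

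In *ecl3*Δ against WT, 0 of the 173 lncRNAs passed at an adjusted p of at most 0.05 in edgeR and 0 in DESeq2, where edgeR called 0% of all genes. At an unadjusted p under 0.05, 1 member was higher and 1 was lower (0.578% each), against 0.847% and 0.767% of all genes. The higher one was SPNCRNA.291 (log2 fold change 0.46) and the lower one SPNCRNA.837 (-0.29, with 20.6, 21.6 and 21.6 CPM in WT and 16.2, 18.6 and 16.8 in *ecl3*Δ). The median log2 fold change was -0.04 over the members and 0.00 over all genes. The *ecl3*Δ libraries were not alike, though. *ecl3*Δ replicate 1 lay below all 3 WT libraries in each of the 32 members that were lower in *ecl123*Δ, and replicate 3 did so in 22. Replicate 2 lay below them in 5 and above all of them in 15. Relative to the WT mean, the median over these 32 members was -0.65 in *ecl3*Δ replicate 1, 0.12 in replicate 2 and -0.39 in replicate 3 on the log2 scale, beside -0.62 to -1.03 in the *ecl123*Δ libraries. The 32 were picked with the WT libraries in view, which shifts any other library down against them. No share over all genes is given for these library counts. Without replicate 2, 22 members were lower (12.7%) and 7 higher (4.05%) in *ecl3*Δ against WT at an unadjusted p under 0.05, against 6.43% and 3.58% of all genes, and edgeR called 3 members and 0.541% of all genes at the adjusted p. These were SPNCRNA.1252 (log2 fold change -1.66, adjusted p = 0.0199), SPNCRNA.1658 (-0.87, adjusted p = 0.0454) and SPNCRNA.798 (0.62, adjusted p = 0.0482).

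**Figure D4:**
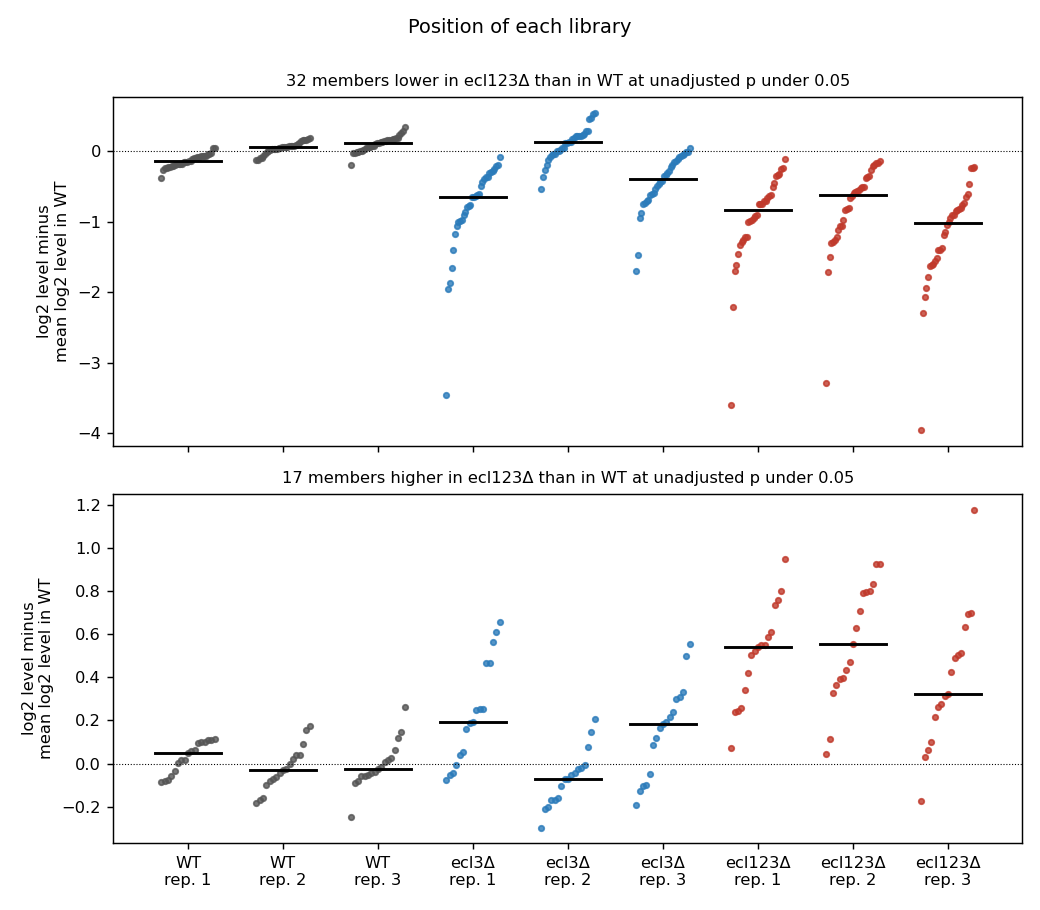
For the 32 members lower and the 17 higher in *ecl123*Δ than in WT at an unadjusted p under 0.05, each point is the log2 CPM of a member in a library minus its mean log2 CPM in WT; bars are medians. *ecl3*Δ replicates 1 and 3 lie toward *ecl123*Δ in both panels, with medians of -0.65 and -0.39 above, and replicate 2 stays near WT with a median of 0.12 above. The members were picked with the WT libraries in view, which by itself shifts other libraries away from WT in the direction of each panel.

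The members that varied most among the *ecl3*Δ libraries were SPNCRNA.1378, SPNCRNA.1252, SPNCRNA.67, SPNCRNA.1014 and SPNCRNA.995. Their SD of log2 CPM was 0.77 to 2.00, where the median member had 0.14, and replicate 2 was the highest library in all 5. SPNCRNA.1014 was at 14.8, 50.7 and 24.3 CPM in *ecl3*Δ and at 41.5 to 52.1 in WT. Within WT the largest SD was 0.36, for SPNCRNA.1378 again, followed by SPNCRNA.614, SPNCRNA.1177, SPNCRNA.1517 and SPNCRNA.1077. Within *ecl123*Δ the median SD was 0.26 and replicate 3 was the lowest library for SPNCRNA.1452 at 6.51 CPM beside 17.0 and 18.3, and for SPNCRNA.716, SPNCRNA.322, SPNCRNA.907 and SPNCRNA.1504, which complete the 5 most variable.

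Between *ecl123*Δ and *ecl3*Δ, 0 members passed the adjusted p in edgeR, where 0.0639% of all genes did, and DESeq2 called 7, where it called 2.88% of all genes. At an unadjusted p under 0.05, 12 members were higher (6.94%) and 19 were lower (10.98%), against 6.15% and 4.54% of all genes. Without *ecl3*Δ replicate 2, 6 were higher and 8 lower (3.47% and 4.62%, against 4.32% and 2.04% of all genes), and without *ecl123*Δ replicate 3, 26 were higher and 12 lower (15.03% and 6.94%, against 9.37% and 10.8%). The largest increases among these were those of SPNCRNA.1344 (log2 fold change 0.69), SPNCRNA.763 (0.63), SPNCRNA.609 (0.63), SPNCRNA.1351 (0.54) and SPNCRNA.724 (0.44). SPNCRNA.1351, antisense to *mug2*, was at 30.1, 26.4 and 28.3 CPM in *ecl3*Δ and at 44.3, 39.8 and 37.9 in *ecl123*Δ, with WT at 29.1 to 31.1. The largest decreases were those of SPNCRNA.1378 (-2.87), SPNCRNA.995 (-1.21), SPNCRNA.839 (-1.03), SPNCRNA.1077 (-1.02) and SPNCRNA.859 (-0.90). Without *ecl3*Δ replicate 2 these values were -1.23, -0.71, -0.74, -0.50 and -0.50. Leaving out *ecl123*Δ replicate 2 or replicate 3 gave 4 calls each, where 1.27% and 0.525% of all genes were called. Both comparisons with *ecl123*Δ share its libraries, so the members they have in common are no separate evidence.

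All members together took 0.745%, 0.735% and 0.741% of the counts in WT, against 0.657%, 0.752% and 0.669% for *ecl3*Δ and 0.628%, 0.674% and 0.652% for *ecl123*Δ. All *ecl123*Δ libraries were below all WT libraries, with a difference of -0.0893 percentage points (exact permutation test, two-sided, p = 0.1, the smallest that 3 against 3 allows, and 0.3 when adjusted over the 3 comparisons). *prl53* supplied 0.197 ± 0.0165% in WT and 0.166 ± 0.0366% in *ecl123*Δ (SD, n = 3). Without it the difference was -0.0583 percentage points, and *ecl123*Δ replicate 2 at 0.5285% lay just below the lowest WT library at 0.5292%. With library sizes scaled by TMM these were 0.5276% and 0.5269%, so that the strains overlapped. Without *ecl123*Δ replicate 3 the difference over all members was -0.0895. In *ecl3*Δ, replicate 2 was above every WT library and the other replicates were below them (exact permutation p = 0.4). Between *ecl123*Δ and *ecl3*Δ the exact permutation p was 0.3.

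**Figure D5:**
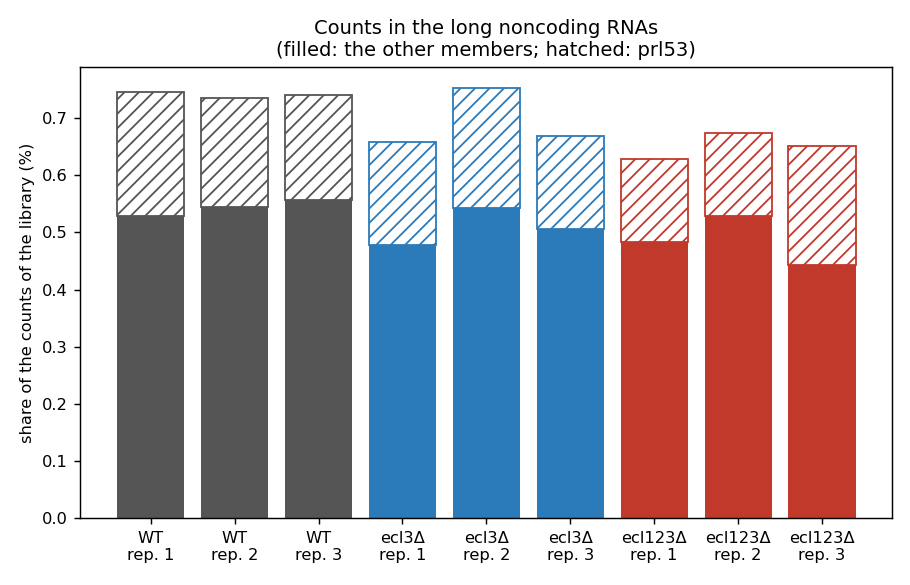
Share of the counts of each library, in percent from 0, held by *prl53* (hatched) and by the other members (filled). The 3 WT bars stand at 0.735% to 0.745% and the *ecl123*Δ bars at 0.628% to 0.674%.

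Genes that end, silence or destroy lncRNAs were compared as well. No gene of 5 lists passed the adjusted p in edgeR in any of the 3 comparisons. In *ecl123*Δ against WT, an unadjusted p under 0.05 was seen for 6 of 23 genes of the exosome and nuclear surveillance list, for 2 of 18 genes of transcription termination and 3′ processing, for 0 of 10 RNA interference genes, for 1 of 12 chromatin factors that limit antisense transcription, and for 0 of 11 genes of cytoplasmic decay, where 19.9% of all genes were past it. Over these lists, DESeq2 called 1 gene of the surveillance list in *ecl123*Δ against WT and 0 in the other lists and comparisons. The medians of the log2 fold change were 0.09, 0.02, 0.00, 0.07 and 0.01 in that order, beside 0.00 over all genes. Among the exosome genes, the subunit gene *mtr3* had the largest decrease (log2 fold change -0.42, edgeR adjusted p = 0.105), and the nuclease gene *dis3* had 0.35 (edgeR adjusted p = 0.178).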

How the data were processed

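Poly(A)+ RNA of 9 libraries was analysed, 3 for each strain. Per the labels and methods, the authors mapped paired reads to ASM294v2 with HISAT2 2.1.0 and tallied exon reads per PomBase gene with HTSeq 0.10.0; the deposited values are raw, unnormalized counts. The strand setting is not given in the sources used here. Deposited DESeq2 tables hold the authors' own comparisons and were not used. Counts were fitted over the whole table in R 4.3.3 with edgeR 4.0.16 (filterByExpr, TMM, quasi-likelihood test, all 9 libraries in 1 fit), after tests on simulated data; 6257 genes passed the filter, all 173 members among them. p-values were Benjamini-Hochberg adjusted over these genes. SE is the log2 fold change over the root of F. DESeq2 1.42.0 served as an alternative. CPM values use column sums. Names and overlaps come from RefSeq's ASM294v3 (6839 genes matched), whose coordinates differ from the files' build and are not printed; lengths are approximate for this reason. Named RNAs are the 12 most abundant, those called, those with names, the 5 largest changes each way at an unadjusted p under 0.05 per comparison, the 5 most variable per strain and those at the limit; other RNAs were named after their values were seen. A gene given as a P-cell marker, *mam3*, was not used because its mating type was in doubt. The members and lists were chosen with earlier results of these data known. Alternatives were other size factors, no filter, 2 strains only, a replicate block, each library left out and other abundance limits.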

Additional observations from a re-analysis of the deposited data

How the results depend on the processing

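In *ecl123*Δ against WT the count of called members was 30 with DESeq2, 20 with only these strains fitted, 0 to 25 with a library left out, 0 of the 49 members at a mean CPM of at least 30 and 2 under the 2-fold and count limits; the cause was not tested. The count was 4 under RLE size factors, library size alone and no filter on low counts, and 3 without possible alternative UTRs, an alternative chosen after seeing the data. In *ecl3*Δ against WT the leave-one-out counts were 0 to 3, and in *ecl123*Δ against *ecl3*Δ 0 to 4, with 7 by DESeq2. The difference in the share of counts was -0.0583 without *prl53*, also chosen after seeing the data. The median over the members in *ecl123*Δ against WT lay between -0.138 and 0.033 over the alternatives, and that in *ecl123*Δ against *ecl3*Δ between -0.114 and 0.057; both were above 0 without *ecl123*Δ replicate 3 alone. The counts at an unadjusted p without the libraries that stand apart were chosen after seeing the data. Replicate numbers are not stated to pair libraries, and same-numbered deviations correlated between -0.18 and 0.22. With the replicate block 5 members (2.89%) were called in *ecl123*Δ against WT, where 1.52% of all genes were. Of these 5, 3 were shared with the 4, and 0 members were called in the other comparisons. The 4 calls had an adjusted p of 0.0336 to 0.0423 in edgeR, and each lost its call in some alternatives.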

Other observations

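Antisense RNAs to genes of stress, glucose and meiosis were among the members without being singled out by the choice of named RNAs, and their values are given here after they were seen. SPNCRNA.622, antisense to *sty1*, the stress-activated MAP kinase, was at 35.8 to 40.05 CPM in WT, 30.9 to 37.95 in *ecl3*Δ and 20.6 to 34.2 in *ecl123*Δ (log2 fold change -0.46 in *ecl123*Δ against WT, edgeR adjusted p = 0.181). SPNCRNA.1324, antisense to the gluconeogenic gene *fbp1*, was at 24.4 to 31.7 CPM in WT and 29.4 to 33.7 in *ecl123*Δ (log2 fold change 0.27, edgeR adjusted p = 0.343), while *fbp1* mRNA was at 11.8 to 14.8 CPM in WT and 3.31 to 7.18 in *ecl123*Δ (edgeR adjusted p = 0.198). SPNCRNA.1381, antisense to the M-factor gene *mfm3*, was at 27.8 to 30.4 CPM in WT and 28.4 to 32.6 in *ecl123*Δ (log2 fold change 0.09, edgeR adjusted p = 0.709). SPNCRNA.904, antisense to the meiotic recombinase gene *dmc1*, was at 28.7 to 32.1 CPM in WT and 24.3 to 35.3 in *ecl123*Δ (log2 fold change 0.08, edgeR adjusted p = 0.844).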
